A study of Mus musculus with 6 samples.

Results

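The protocadherins are the largest subfamily of the cadherin cell-adhesion proteins. Every gene whose symbol began with Pcdh was taken from the gene list of the deposited matrices, which gave 69 of 32285 features. The genes were grouped by the letter that follows in the symbol: 14 belong to the α cluster, 22 to the β cluster, 21 to the γ cluster, and the remaining 12 carry no letter and are called non-clustered. Pcdha11 stands on 2 of these features, ENSMUSG00000007440 and ENSMUSG00000102206, and the second is meant wherever no identifier is given. All 69 had at least 1 unique molecular identifier (UMI, a count of 1 captured RNA molecule) in the nuclei analysed, and 11 had fewer than 100.

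The clustered genes lie in tandem on chromosome 18. In the α and γ clusters each gene contributes its own variable first exon, which is spliced to constant exons shared by the whole cluster, whereas each β gene is a single coding exon. A neuron activates a few promoters of the clusters, with roles for DNA methylation, CTCF and cohesin, and the resulting combination of surface proteins binds homophilically and serves self-recognition of neurites. The C-type genes at the 3′ ends of the α and γ clusters (Pcdhac1, Pcdhac2, Pcdhgc3, Pcdhgc4 and Pcdhgc5) are known to be less subject to this choice. The non-clustered genes are transcribed independently and comprise δ1 (Pcdh1, Pcdh7, Pcdh9, Pcdh11x), δ2 (Pcdh8, Pcdh10, Pcdh17, Pcdh18, Pcdh19) and more distant members (Pcdh12, Pcdh15, Pcdh20).

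Single-nucleus RNA-Seq was carried out on the prelimbic (PL) medial prefrontal cortex of male C57BL/6 mice, in 6 libraries that each pooled the tissue of 3 males, each from another mother. Run and Sed offspring were raised until weaning by dams with and without a running wheel, and were then group-housed (GH) or socially isolated (SI). Dataset 1 held 1 RunGH and 1 SedGH library from males that had been tested for dominance in the tube, where the 3 Run males ranked at the top and the 3 Sed males at the bottom of their groups, so rank and maternal environment cannot be told apart there. Dataset 2 held 1 library each of behaviourally naive RunGH, SedGH, RunSI and SedSI males. The labels give the age as postnatal day 21, whereas the study's methods describe adults. Males within a pool cannot be separated, and no library shares its dataset, maternal environment and housing with another. P-values for maternal environment and housing therefore draw on departures from a model that adds these effects, not on replicate pools. Those between classes measure the spread of within-library differences between pools.

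In all 42595 nuclei were kept, 4997 to 9936 per library, with a median of 1637 (SedGH of dataset 2) to 6250 (SedGH of dataset 1) UMIs per nucleus. Clusters were called pyramidal-like (33798 nuclei), inhibitory-like (4174, among them 1563 PV-like and 1287 SST-like), astrocyte-like (1522), microglia-like (611), oligodendrocyte-precursor-like (488, with 21 to 142 per library) and oligodendrocyte-like (375) from known markers that exclude protocadherins, and are written below without the suffix, as are the layers. Protocadherins were also left out of the genes used for clustering. Pairs of libraries shared 5 to 22 barcodes. Droplets with fewer than 100 UMIs, which hold free RNA rather than nuclei, served as background. The upper estimate of the free-RNA share was 2.29 to 12.6% of UMIs in pyramidal neurons and 5.06 to 19.1% in inhibitory neurons, but 11.7 to 32.6% in astrocytes, 19.6 to 37.4% in microglia, 19.5 to 44.6% in oligodendrocytes and 16.3 to 90% in precursors, where 90% is the cap set on the estimate.

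Protocadherins made up 0.571% of the 197811345 UMIs in nuclei. Non-clustered genes accounted for 1106255 of the 1129067 protocadherin UMIs, and Pcdh9 (571238), Pcdh15 (305500) and Pcdh7 (137430) together for 89.8%. The 57 clustered genes gave 22812 UMIs, 2.02% of the family. Intronic reads were counted, and the genes differ widely in length. Pcdh9 (chr14:93013410-93890679, mm10, minus strand) offers 877 kb and Pcdh15 (chr10:73099342-74649737, plus strand) 1522 kb from which a read can be assigned to the gene alone, whereas Pcdhga12 offers 4.54 kb. Reads in the constant exons cannot be assigned to a single α or γ gene, so these counts reflect variable exons.

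Per countable kilobase the order changed. As CPM (UMIs of a gene scaled to 1000000 UMIs) per countable kb, median over the libraries, Pcdh9 was at 3.29, Pcdh10 at 2.32, Pcdhga12 at 1.92, Pcdh7 at 1.67, Pcdh17 at 1.57, Pcdha11 at 1.50, Pcdh1 and Pcdhgc4 at 1.45 each, and Pcdh15 at 1.01. Pcdh19 (0.348) and Pcdh11x (0.165), both on the X chromosome, were lower. Pcdh18 was at 0.0468, and Pcdh12, a protocadherin of endothelial cells, was at 0.00146 with 5 UMIs in all. The strongest variable-exon genes thus had values per kb near those of Pcdh7 and Pcdh17. For long genes the countable kilobases include introns, whereas α and γ counts reflect variable exons. These values are therefore not like measures of expression.

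Within the arrays the genes differed widely, as the plot of levels in array order shows. The α genes (chr18:36930184-37187661) ran from 0.0768 CPM per kb in Pcdha2 to 1.50 in Pcdha11, the 11th gene in order, with Pcdha5 at 0.799 and Pcdha12 at 0.776. The other Pcdha11 feature, ENSMUSG00000007440, 10th in order, held 186 UMIs against 1384. The β genes (chr18:37264938-37524479) ran from 0.00586 in Pcdhb1, which had 3 UMIs, to 1.35 in Pcdhb17. Pcdhb20 (1.06) and Pcdhb21 (1.01) came next, followed by Pcdhb14 (0.874) and Pcdhb19 (0.772). The γ genes (chr18:37661793-37841873) ran from 0.0706 in Pcdhga1 to 1.92 in Pcdhga12, with Pcdhgb4 at 1.34 and Pcdhga6 at 1.02. The C-type genes differed among themselves: Pcdhgc4 (1.45) and Pcdhgc5 (1.39) were among the highest, whereas Pcdhgc3 (0.281), Pcdhac2 (0.275) and Pcdhac1 (0.0988) were low.

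**Figure D1:**
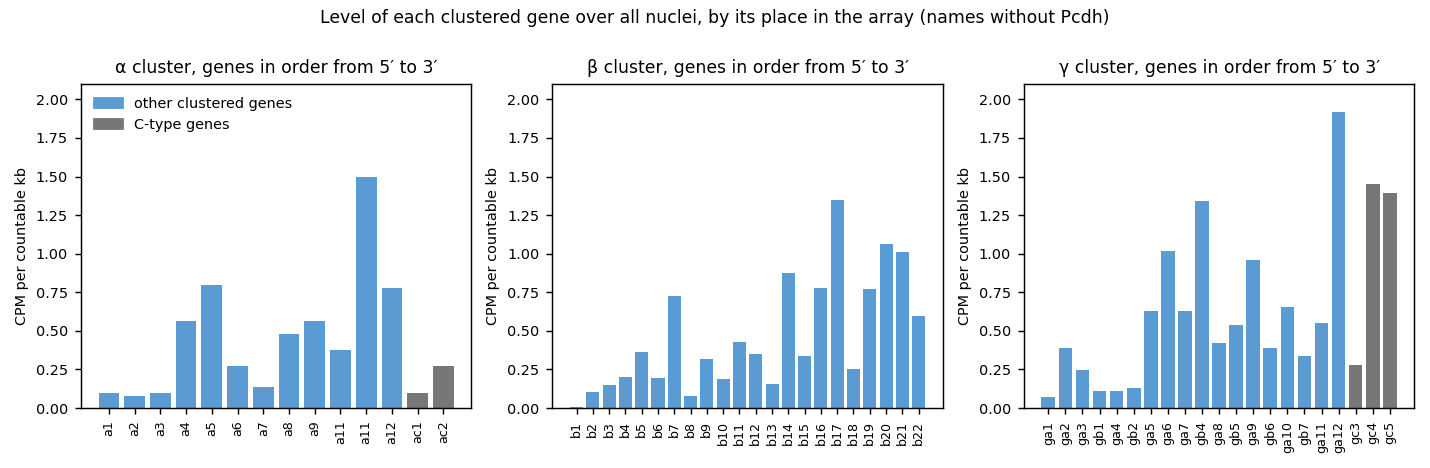
Median CPM per countable kb over the 6 libraries, all nuclei (bars), for each gene of the α, β and γ clusters in 5′ to 3′ order; C-type genes are grey. Single genes such as Pcdha11, Pcdhb17 and Pcdhga12 stand above neighbours in the same array, and the C-type genes span low (Pcdhac1) to high (Pcdhgc4) levels.

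The classes were compared with pyramidal neurons by edgeR's quasi-likelihood test on UMIs summed per library and class, with the library as a block and Benjamini-Hochberg adjustment over all genes. Changes are log2 differences ± SE, over 6 libraries. Among all genes tested, 29.1% were higher and 24.6% lower in inhibitory neurons, 27.5 and 26.5% in astrocytes, 14.6 and 19.0% in precursors, 8.61 and 12.3% in oligodendrocytes, and 12.7 and 14.4% in microglia. Against these backgrounds, protocadherins were higher and lower in 8 and 6 of 50 tested in inhibitory neurons, 8 and 6 of 42 in astrocytes, 6 and 1 of 45 in precursors, 2 and 3 of 39 in oligodendrocytes, and 0 and 6 of 38 in microglia. The shares of members that moved were under the background in inhibitory neurons, astrocytes, precursors and oligodendrocytes in both directions. In a pool of nuclei, a low level over few expressing nuclei and a low level in every nucleus cannot be told apart.

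Pcdh9, a δ1 member, was abundant in every class and highest in oligodendrocytes. Its CPM ran over the libraries from 6431 to 10789 in oligodendrocytes (median 7784), from 3219 to 4857 in precursors (4548), from 2801 to 4288 in astrocytes (3128), from 2232 to 3305 in pyramidal neurons (2619), from 2314 to 2770 in microglia (2584) and from 2288 to 2940 in inhibitory neurons (2432). The oligodendrocyte libraries did not overlap those of the other classes just named, and the difference from pyramidal neurons was 1.25 ± 0.14 (adjusted p = 2.62e-16). Pcdh9 was lower in inhibitory neurons by edgeR's test although the ranges overlapped, and its background droplets had a median of 1522 CPM. Some glial clusters also carried pyramidal RNA. On the relative score of pyramidal markers, microglia clusters were at 0.595 and 0.591 and oligodendrocyte clusters at 0.532 and 0.671. Pyramidal clusters were at 0.583 to 0.857. The part of pyramidal RNA in the glial levels was not tested.

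Pcdh11x, the X-linked δ1 member, was higher in inhibitory neurons and 3 glial classes than in pyramidal neurons. Its CPM was 64.3 to 107 in pyramidal neurons (median 83.7), 139 to 196 in inhibitory neurons (174), 161 to 277 in astrocytes (206), 159 to 205 in oligodendrocytes (185) and 341 to 681 in precursors (474). None of these ranges touched that of pyramidal neurons. The change in precursors was 2.05 ± 0.13 (adjusted p = 7.46e-51, edgeR quasi-likelihood), and the changes in astrocytes (1.07 ± 0.13), inhibitory neurons (0.85 ± 0.08) and oligodendrocytes (0.85 ± 0.16) also passed. Background droplets were at 59.0, below every class median.

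Pcdh7 was at 565 to 822 CPM in pyramidal neurons (median 663) and at nearly the same median in inhibitory neurons (659). It was higher in astrocytes (967 to 1394, change 0.60 ± 0.13) and precursors (959 to 1907, change 0.44 ± 0.13), and lower in oligodendrocytes (378 to 814, change -0.45 ± 0.15). Pcdh1, the fourth δ1 gene, was lower in inhibitory neurons (median 23.8), precursors (24.1) and microglia (27.7) than in pyramidal neurons (31.5). Background droplets had a median of 70.5 for Pcdh1, above all of these.

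**Figure D2:**
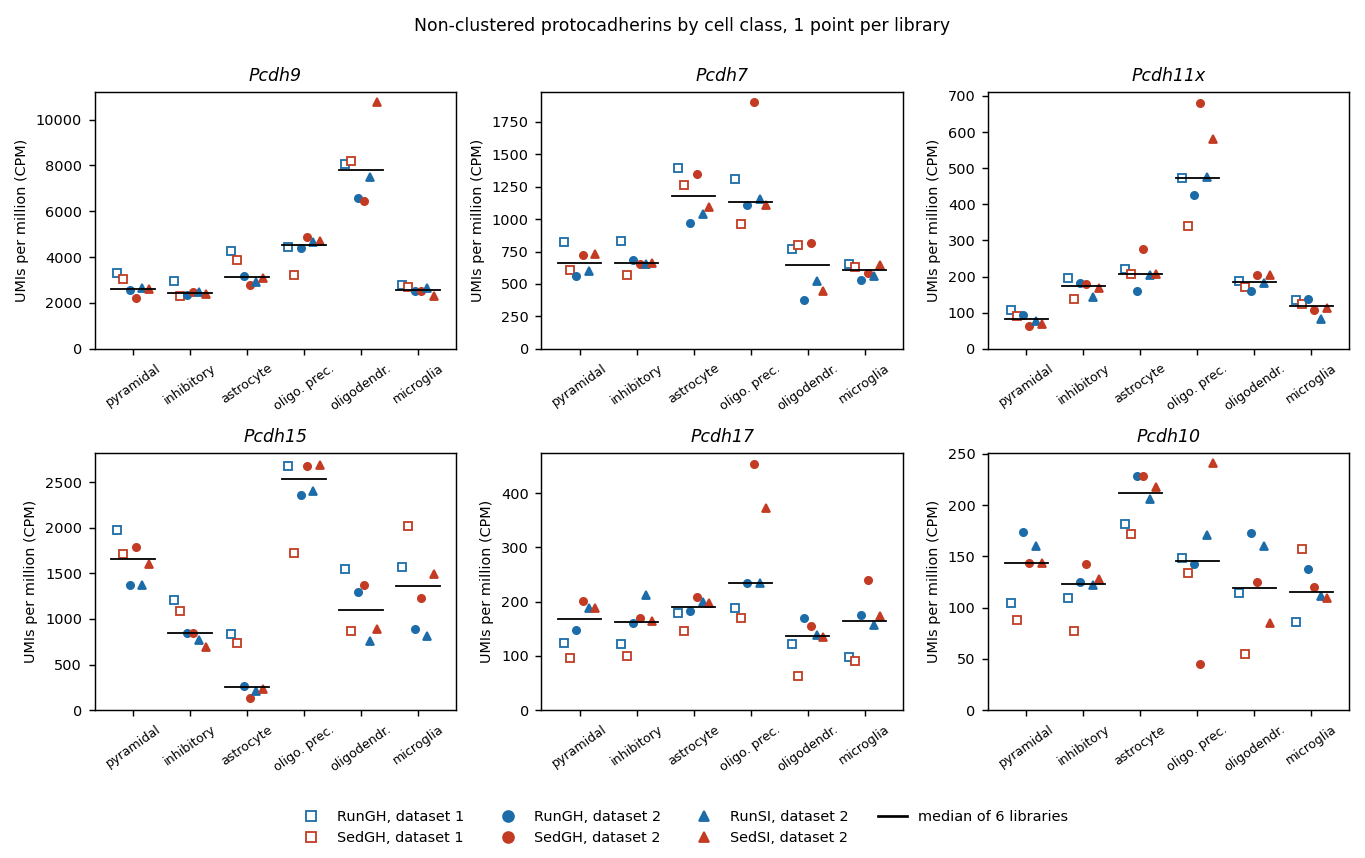
CPM of 6 non-clustered protocadherins by class, 1 point per library (blue Run, red Sed; open squares dataset 1, circles dataset 2 GH, triangles dataset 2 SI), with a line at the median. Pcdh9 is highest in oligodendrocytes, Pcdh11x lowest in pyramidal neurons, and Pcdh15 lowest in astrocytes, where the 2 dataset 1 libraries (836 and 731) stand above the rest.

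Pcdh15, a stereocilia tip-link protein of hair cells, had its highest median among these broad classes in precursors, at 1721 to 2689 CPM (median 2537). Pyramidal neurons were at 1368 to 1975 (1653), a range that met the lowest precursor library, and no difference was called. Inhibitory neurons were lower, at 691 to 1203 (843), by -0.98 ± 0.07 (adjusted p = 2.83e-10, edgeR), with no overlap. Astrocytes were lower still, by -2.42 ± 0.24 (adjusted p = 2.66e-08). Their levels were 836 and 731 in dataset 1 and 266, 129, 215 and 237 in dataset 2. Background droplets moved the same way, at 1582 and 1643 in dataset 1 against 277 to 738 in dataset 2, and the part of free RNA in the astrocyte values was not tested.

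Of the δ2 genes, known from the sorting and outgrowth of axons, Pcdh10 was higher in astrocytes (172 to 228 CPM) than in pyramidal neurons (88.2 to 174), by 0.43 ± 0.12, and slightly lower in inhibitory neurons (77.1 to 143). Pcdh17 showed medians of 168 in pyramidal neurons, 163 in inhibitory neurons and 190 in astrocytes, and was lower in oligodendrocytes (137, change -0.46 ± 0.17). Pcdh19, mutated in a female-limited epilepsy of humans, was at 45.8 to 77.9 in inhibitory neurons and 24.4 to 38.6 in pyramidal neurons, with no overlap, a difference of 0.82 ± 0.07 (adjusted p = 3.45e-09, edgeR). Pcdh8, a gene induced by neuronal activity, was also higher in inhibitory neurons, by 1.01 ± 0.19, at medians of 6.46 against 2.75, though its background droplets were at 19.4. Pcdh18 was at 1.30 to 5.59 in inhibitory neurons and 0.207 to 0.593 in pyramidal neurons, a change of 2.69 ± 0.39 that rests on 44 UMIs in inhibitory neurons.

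Pcdh20 was at 0 to 9.90 CPM in astrocytes (22 UMIs) against a median of 1.63 in pyramidal neurons, a change of 1.68 ± 0.43 (adjusted p = 0.00228, edgeR). SedSI was the astrocyte library at 0, and background droplets had a Pcdh20 median of 4.80 (1.04 to 7.96), above the pyramidal one. The microglial differences were all decreases of non-clustered genes: Pcdh15 (-0.68 ± 0.08), Pcdh1 (-0.66 ± 0.20), Pcdh10 (-0.55 ± 0.13), Pcdh7 (-0.46 ± 0.09), Pcdh9 (-0.39 ± 0.07) and Pcdh17 (-0.32 ± 0.12). The calls of Pcdh1 and Pcdh17 in microglia were lost with DESeq2 and with thinned nuclei. In oligodendrocytes Pcdh17 was lost with both, Pcdh7 with DESeq2 and Pcdh11x with thinned nuclei.

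Among inhibitory neurons, SST and PV interneurons were compared within libraries. Of all genes tested, 12% were higher and 14.1% lower in SST interneurons, and of 12 protocadherins tested 3 were higher and 2 lower. Pcdh11x stood at 187 to 318 CPM in SST and 87.0 to 171 in PV interneurons, Pcdh7 at 668 to 1120 and 447 to 720, and Pcdh15 at 1070 to 1533 and 585 to 1122. The corresponding differences were 1.06 ± 0.08 (adjusted p = 8.66e-15), 0.87 ± 0.08 (2.93e-13) and 0.65 ± 0.07 (7.26e-11) by edgeR's test, and in each of the 6 libraries SST was above PV for all 3 genes. Pcdh17 was lower in SST interneurons (76.6 to 167 against 130 to 297), by -0.62 ± 0.10, and so was Pcdh19 (31.6 to 81.9 against 49.5 to 84.4), by -0.45 ± 0.13. For Pcdh19, RunSI was the library in which SST (81.9) exceeded PV (75.7), and its call was lost with DESeq2 and with thinned nuclei. The pair of X-linked members thus moved in opposite directions between these interneurons.

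In the clustered genes the classes differed by cluster. Summed over the α genes, pyramidal neurons had 14.0 to 28.9 CPM (median 17.3) and inhibitory neurons a median of 20.5, whereas astrocytes were at 10.4, 7.90, 1.42, 0, 0 and 3.89 (RunGH and SedGH of dataset 1, then RunGH, SedGH, RunSI and SedSI of dataset 2). Astrocytes were below pyramidal neurons in every library, and their median of 2.66 lay below the 13.8 of background droplets. The γ sum was 58.4 to 102 in astrocytes (median 71.2) and 60.4 to 121 in precursors (78.3), against 29.1 to 70.4 in pyramidal neurons (34.1) and a background median of 34.6. The β sum was at similar medians in pyramidal neurons (38.6), astrocytes (36.0) and precursors (42.7), all below the background droplets (52.1).

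As shares of clustered UMIs, α genes gave 17.2% in pyramidal neurons (exact binomial 95% interval 16.7 to 17.8) and 5.11% in astrocytes (3.47 to 7.22), and γ genes 40.1% (39.4 to 40.9) and 64.2% (60.2 to 68.1). In precursors the γ share was 57.9% (51.0 to 64.6). These intervals cover counting error only, and the astrocyte γ share was above the pyramidal one in each of the 6 libraries, although SedGH of dataset 2 held only 6 clustered UMIs in astrocytes.

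**Figure D3:**
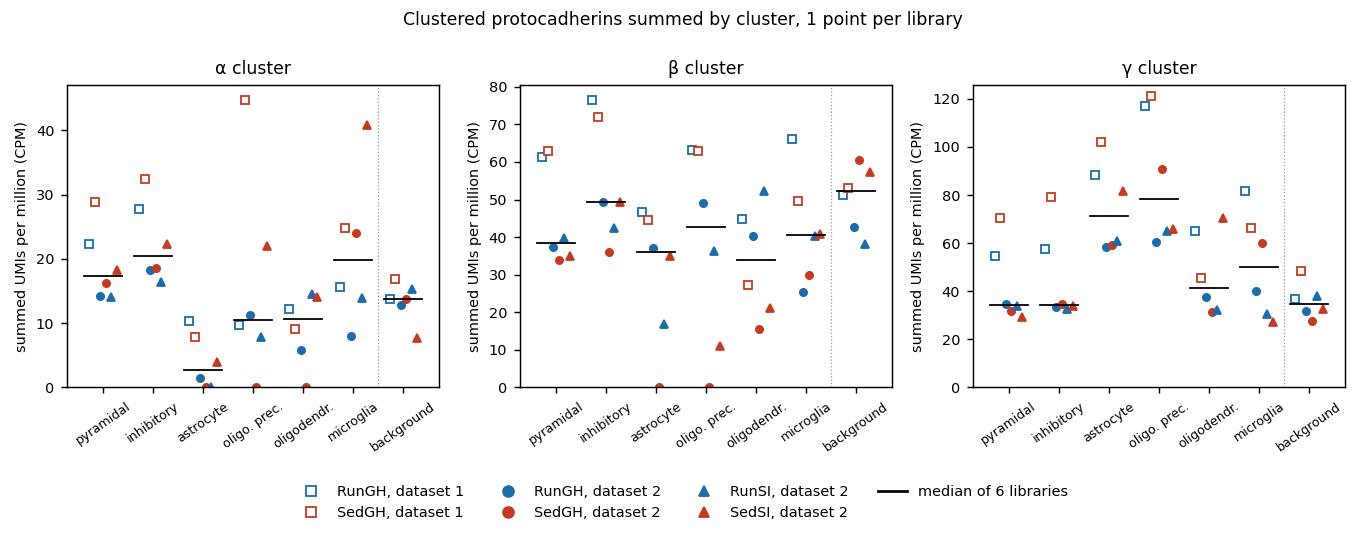
Summed CPM of the α, β and γ genes by class and in background droplets, 1 point per library (colours and shapes as in the plot of non-clustered genes), with a line at the median. Astrocytes have the lowest median for α, and astrocytes and precursors have higher medians than the neurons for γ.

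Of all genes tested, 27.5% were higher and 26.5% lower in astrocytes. Among the 14 α genes 5 could be tested there, and 4 of these were lower: Pcdha5 (-3.29 ± 0.90, with 1 UMI in astrocytes), Pcdha9 (-2.14 ± 0.78), Pcdha11 (-2.05 ± 0.39) and Pcdha12 (-1.98 ± 0.72). Pcdha11 had 10 UMIs in astrocytes, at a median of 0.712 CPM against 6.66 in pyramidal neurons (adjusted p = 0.000123, edgeR). Of 17 γ genes tested, 4 were higher in astrocytes, a share under that of all genes, and 0 were lower. The 4 were Pcdhga1 (2.17 ± 0.58, 12 UMIs), Pcdhgc3 (2.01 ± 0.55, 21 UMIs), Pcdhgc4 (0.97 ± 0.26) and Pcdhgb4 (0.89 ± 0.29). Among β genes Pcdhb17 was lower (-0.92 ± 0.34). Low-count genes can enter this test through the class where they are higher, so their calls are weak support. Pcdhgc4, the γ C-type gene known for a role in neuronal survival, was at 6.76 to 11.7 CPM in astrocytes and 2.48 to 5.68 in pyramidal neurons, with no overlap. With nuclei thinned to 1000 UMIs, 4 of the 14 astrocyte calls were kept (Pcdh7, Pcdh15, Pcdh11x and Pcdha11), 6 missed the threshold (Pcdh10, Pcdh20, Pcdhb17, Pcdhgb4, Pcdhgc3 and Pcdhgc4) and 4 had too few UMIs to be tested. DESeq2 lost Pcdha9 and Pcdha12.

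Pcdhgc4 was also higher in inhibitory than in pyramidal neurons, at 6.46 to 9.47 CPM (0.81 ± 0.17, adjusted p = 0.000472, edgeR) and with no overlap, and in precursors (1.22 ± 0.43). Pcdha4 was higher in inhibitory neurons too, at 2.59 to 4.74 against 1.19 to 2.38 (1.02 ± 0.23), as were Pcdhga3 (1.04 ± 0.38) and Pcdhb5 (0.80 ± 0.29). Pcdhga12 went the other way, with medians of 4.13 in inhibitory and 7.49 in pyramidal neurons (-0.81 ± 0.16), and Pcdhgc5 was lower as well (-0.79). In precursors Pcdhgb2 (2.78 ± 0.99), Pcdhgb1 (2.73 ± 1.12) and Pcdhgb6 (2.36 ± 0.68) passed on 4, 3 and 9 UMIs, so counting error is large there. In pyramidal neurons they held 54, 45 and 161 UMIs. Precursor sums were only 22028 to 411983 UMIs per library, so a few UMIs can carry a gene past the low-count filter. These calls, which count among the 6 of 45 higher in precursors, are therefore no support for a higher level. In thinned nuclei the inhibitory calls of Pcdhgc4, Pcdhgc5 and Pcdhga3 and the precursor calls of Pcdhgc4 and Pcdh7 missed the threshold, and Pcdhb5, Pcdhgb1 and Pcdhgb2 could not be tested. DESeq2 lost Pcdhb5 and Pcdhga3 in inhibitory neurons and Pcdh1 in precursors.

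Layer 6 neurons (the Syt6 cluster, 5180 nuclei) were compared with layer 2/3 neurons (the Otof cluster, 9308 nuclei, which joins 2 clusters of dataset 2) within libraries. Clusters are named by 1 of the 10 genes with the highest fold in them. The study counts Oprk1 among its layer 6 markers, but the Oprk1 cluster (2956 nuclei) was given no layer name here. Layer 6 below therefore means the Syt6 cluster alone. In all, 18.7% of genes tested were higher and 23.6% lower in layer 6, and of 38 protocadherins 5 were higher and 4 lower. Pcdh9 was at 5365 to 7253 CPM in layer 6 and 1597 to 2394 in layer 2/3, a difference of 1.67 ± 0.07 (adjusted p = 7.31e-13, edgeR). Pcdh15 showed the opposite pattern, at 312 to 584 against 1316 to 1961 (-1.87 ± 0.08, adjusted p = 1.97e-12). Neither gene's ranges overlapped. The layer 6 level of Pcdh15 was also below the median of its background droplets (731).

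The δ2 genes Pcdh17 (116 to 230 against 80.9 to 190, 0.47 ± 0.06) and Pcdh10 (0.20 ± 0.07) were higher in layer 6. Pcdh8 (0.573 to 4.11 against 2.37 to 6.67, -1.23 ± 0.26), Pcdh20 (0.218 to 2.79 against 1.70 to 4.52, -2.24 ± 0.34) and Pcdh11x (-0.25 ± 0.08) were lower. For Pcdh17, layer 6 was above layer 2/3 within each library although the ranges overlap. Of clustered genes, Pcdha8 was higher in layer 6 (54 UMIs against 37, 1.24 ± 0.33), and so was Pcdha11 (medians 8.65 and 5.83 CPM, 0.51 ± 0.14). Both, like Pcdh20, had too few UMIs to be tested in thinned nuclei, and DESeq2 lost the call of Pcdh11x.

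The 250 bases before the start of each gene (RefSeq, GRCm38.p6, strand of the gene) are shown for non-clustered genes with a layer difference. They cover 3 that were higher in layer 6 (Pcdh9, Pcdh17, Pcdh10) and 3 that were lower (Pcdh15, Pcdh8, Pcdh20), so that promoters of genes with opposite layer patterns can be read side by side. Pcdh11x, also lower in layer 6, was absent from the promoter set used. Capitals mark CGCT or its reverse complement AGCG, the core of the conserved element of clustered protocadherin promoters.
Pcdh9: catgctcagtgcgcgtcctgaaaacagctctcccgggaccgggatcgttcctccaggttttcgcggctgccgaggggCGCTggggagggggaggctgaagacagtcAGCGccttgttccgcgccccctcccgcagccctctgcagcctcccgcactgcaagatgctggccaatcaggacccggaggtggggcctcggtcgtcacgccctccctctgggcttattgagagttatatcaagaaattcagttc
Pcdh17: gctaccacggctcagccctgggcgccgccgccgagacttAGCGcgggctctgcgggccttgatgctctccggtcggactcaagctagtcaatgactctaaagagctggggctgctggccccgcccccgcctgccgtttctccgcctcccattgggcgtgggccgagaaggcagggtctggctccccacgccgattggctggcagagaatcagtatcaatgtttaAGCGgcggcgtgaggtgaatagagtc
Pcdh10: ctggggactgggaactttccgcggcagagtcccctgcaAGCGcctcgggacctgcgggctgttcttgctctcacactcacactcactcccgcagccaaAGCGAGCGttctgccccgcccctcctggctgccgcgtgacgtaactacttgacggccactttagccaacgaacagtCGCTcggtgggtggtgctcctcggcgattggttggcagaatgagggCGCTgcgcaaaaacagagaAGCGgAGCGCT
Pcdh15: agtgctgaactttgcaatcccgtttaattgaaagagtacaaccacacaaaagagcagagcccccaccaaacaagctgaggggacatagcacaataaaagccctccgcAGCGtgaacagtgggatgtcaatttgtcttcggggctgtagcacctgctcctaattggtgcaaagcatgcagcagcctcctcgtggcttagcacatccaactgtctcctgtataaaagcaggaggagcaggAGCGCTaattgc
Pcdh8: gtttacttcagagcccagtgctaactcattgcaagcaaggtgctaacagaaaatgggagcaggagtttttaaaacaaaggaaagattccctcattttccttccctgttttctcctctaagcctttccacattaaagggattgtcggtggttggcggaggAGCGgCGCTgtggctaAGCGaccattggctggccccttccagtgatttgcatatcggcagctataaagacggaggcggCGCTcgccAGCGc
Pcdh20: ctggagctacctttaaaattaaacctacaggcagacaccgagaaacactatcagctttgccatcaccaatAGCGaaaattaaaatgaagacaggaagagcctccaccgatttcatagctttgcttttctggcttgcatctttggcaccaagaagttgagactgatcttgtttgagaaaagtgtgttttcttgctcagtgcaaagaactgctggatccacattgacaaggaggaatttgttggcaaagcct

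The positions are chr14:93890680-93890929 (minus strand) for Pcdh9, chr14:84443313-84443562 (plus) for Pcdh17, chr3:45378148-45378397 (plus) for Pcdh10, chr10:73821617-73821866 (plus) for Pcdh15, chr14:79771313-79771562 (minus) for Pcdh8 and chr14:88471397-88471646 (minus) for Pcdh20. The window of Pcdh15 lies within introns of its longer transcripts, that of Pcdh10 overlaps an exon of a gene on the other strand, and the others lie outside the annotated exons. The windows of Pcdh9, Pcdh17 and Pcdh10 were richer in G and C (63.6, 64.8 and 63.2%, with 18, 21 and 22 CG dinucleotides) than those of Pcdh15 (50.4%, 6), Pcdh8 (51.2%, 11) and Pcdh20 (42.4%, 3), where the medians over 27025 promoters were 52.0% and 6.00. The CGCT motif, searched on both strands, was present 2, 2, 8, 3, 5 and 1 times, in the order printed, and 55.3% of all promoters held it. A match in these letters is a description and not a binding site.

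Across the pyramidal clusters found in both datasets the levels are given without a test. Pcdh15 was highest in the Scn7a (median 3000 CPM, range 2655 to 3775) and Spink13 (2619, 2110 to 2750) clusters and lowest in the Chst8 one (228, 180 to 493). Pcdh9 was also lowest in the Chst8 cluster (841, 606 to 1671). The Tshz2 cluster, called layer 5 (1565 nuclei), had the highest Pcdh17 median (360, 159 to 396) and the lowest Pcdh11x median (29.5, 19.2 to 69.6). In the study Tshz2 marks a subtype of layer 5 neurons, so this cluster does not stand for the whole layer. Pcdh19 had medians of 32.4 to 58.1 in the other clusters but 6.69 (1.26 to 9.98) in the Oprk1 one. Pcdh8 (6.14) and Pcdh20 (3.62) had their highest medians in the Otof cluster.

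**Figure D4:**
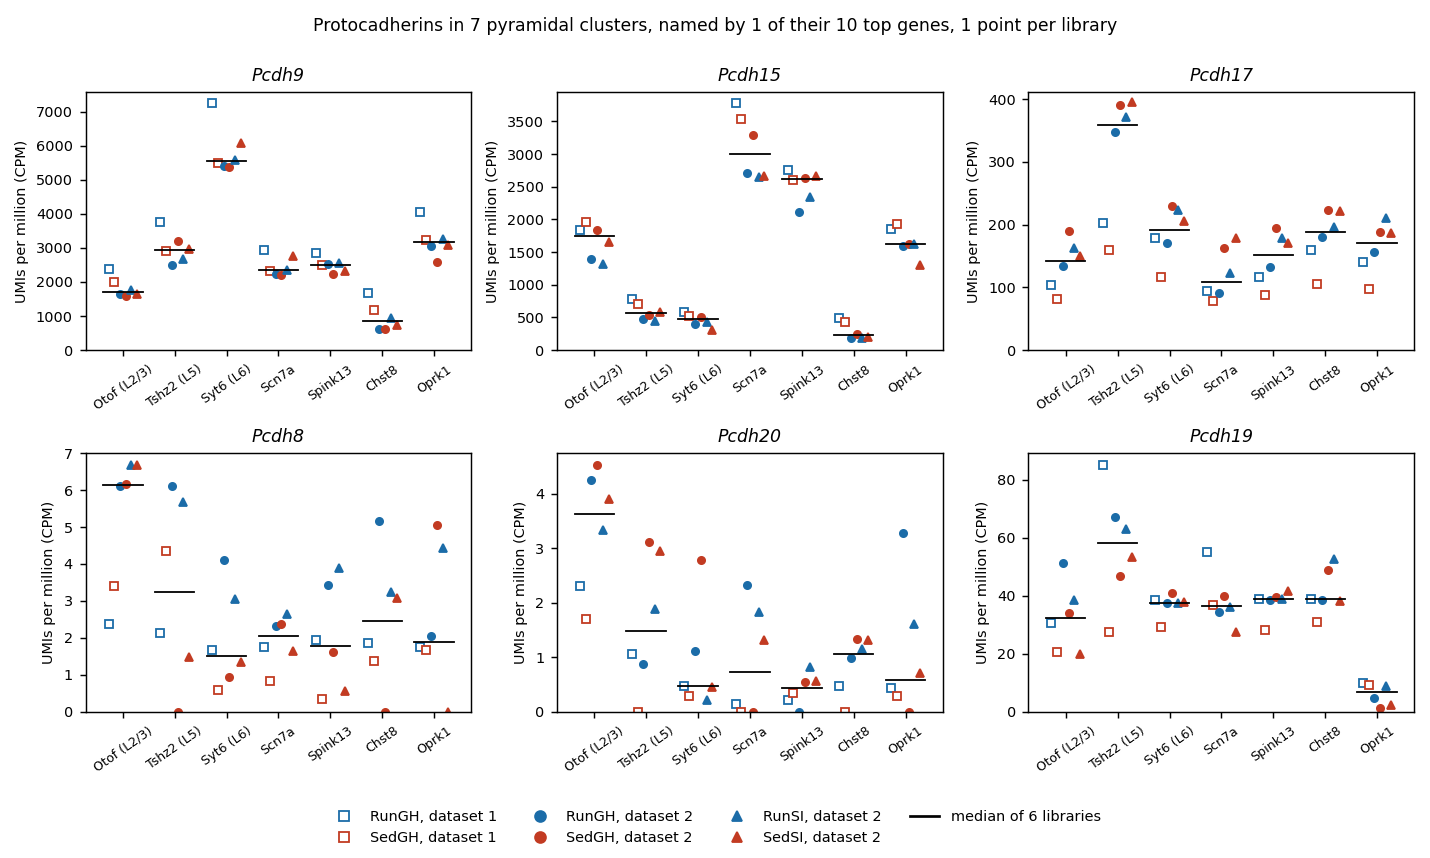
CPM of 6 non-clustered protocadherins in 7 pyramidal clusters named by 1 of their 10 top genes, 1 point per library (colours and shapes as above), with a line at the median. Pcdh9 peaks in the layer 6 (Syt6) cluster, where Pcdh15 is low, and Pcdh19 is lowest in the Oprk1 cluster.

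Few clustered UMIs were found in any single nucleus. At least 1 was present in 36.2% of pyramidal nuclei (14.2 to 64.2% by library), and in 9.87% once each nucleus was thinned to 1000 UMIs (7.72 to 15.3%). The thinned shares were 11.2% in inhibitory neurons, 11.7% in astrocytes, 12.7% in precursors, 8.74% in oligodendrocytes and 7.76% in microglia. For α genes alone they were 1.81% in pyramidal neurons and 0.616% in astrocytes. Among pyramidal nuclei, 24.4% had UMIs of 1 clustered gene, 7.87% of 2 and 3.94% of 3 or more. Where a nucleus held 2 or more clustered UMIs, they came from a single gene in 4.15% of cases. At this depth the number of isoforms a nucleus expresses cannot be read. By contrast Pcdh9 was detected in a median of 95.5% of pyramidal nuclei and Pcdhga12 in 3.26%.

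The maternal environment and the housing were tested in a model with dataset, maternal environment and housing (6 libraries, 2 residual degrees of freedom). These 2 are disagreements of the Run against Sed difference between the datasets and between the housings, not replicate pools. No protocadherin was called for Run against Sed: 0 of 64 tested in pyramidal neurons, 29 in inhibitory neurons, 11 in PV and 9 in SST interneurons, 9 in astrocytes and 8 in precursors, by edgeR and by DESeq2. DESeq2 called 52 of all 17962 genes in pyramidal neurons. Of all genes, edgeR called 0% in pyramidal neurons, 0.0855% in inhibitory neurons, 0.0980% in PV and 0.0511% in SST interneurons, 0.0744% in astrocytes and 0% in precursors. A count of 0 does not show that levels were equal. At an unadjusted p under 0.05 the counts of protocadherins were 3, 1, 0, 1, 1 and 0 in that order. The share of all genes under it is not given, so no result is read from these counts. For SI against GH, 0 were called in each of the 6 classes by either tool and 0 were under an unadjusted 0.05. Among all genes, 0% were called for housing in pyramidal and inhibitory neurons, PV interneurons and precursors, 0.0102% in SST interneurons and 0.0213% in astrocytes.

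Pcdha5 and Pcdha4 had the lowest unadjusted p for the maternal environment in pyramidal neurons. There Pcdha5 was at 1.86 CPM in RunGH and 2.42 in SedGH of dataset 1, 1.22 and 2.79 in RunGH and SedGH of dataset 2, and 1.45 and 2.37 in RunSI and SedSI. Pcdha4 was at 1.24 and 1.89, 1.19 and 2.38, and 1.32 and 1.98 in the same order. Both genes were thus lower in Run in each of the 3 pairs, and all Run libraries lay below all Sed libraries. Since both were picked by their p in this same comparison, that order adds no support. The fitted differences were -0.77 ± 0.26 and -0.76 ± 0.24, but the adjusted p was 0.669 for both by edgeR's quasi-likelihood test. In inhibitory neurons Pcdha5 was at 1.34 against 5.21, 0.649 against 3.99 and 0.609 against 2.71 (31 UMIs, -2.08 ± 0.64, adjusted p = 0.585). No Run library reached a Sed library there either, but the pools are the same and single libraries held few UMIs.

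Pcdh11x was at 107 and 90.3, 93.6 and 64.3, and 77.1 and 69.9 CPM in pyramidal neurons (Run and Sed of the same pairs), higher in Run in each pair (0.26 ± 0.10, adjusted p = 0.669, edgeR). Pcdh19 had values of 0.68 ± 0.25 in SST interneurons (adjusted p = 0.748) and 0.75 ± 0.33 in astrocytes (0.652). Pcdh11x and Pcdh19 were likewise picked by an unadjusted p under 0.05 in these comparisons. By cluster, the median fitted Run difference in pyramidal neurons was -0.35 for α (11 of 12 tested below 0), -0.35 for γ (15 of 20 below 0), 0.03 for β and 0.17 for non-clustered genes, where the median of all genes was 0.00. The summed α level was lower in Run in each pair. The summed γ level was lower in Run in dataset 1 but higher in Run in the GH and SI pairs of dataset 2. With RunGH or SedGH of dataset 1 left out, the contrast rests on the 4 libraries of dataset 2 with 1 residual degree of freedom. In these refits 15.9 and 16.0% of all genes were called, and 7 protocadherins in pyramidal neurons in each: Pcdh7 (-0.41), Pcdh15 (-0.39), Pcdh17 (-0.31), Pcdha5 (-1.02), Pcdhga5 (-1.21), Pcdhga12 (0.76) and Pcdh11x (0.24).

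The Run against Sed difference was compared between the datasets. Dataset 1 gives 1 Run and 1 Sed library. In the model with that interaction, the 1 residual degree of freedom is the disagreement between the GH and SI pairs of dataset 2. A maternal effect that differs by housing counts as spread there. The quasi-likelihood test also draws each gene's spread towards that of all genes tested, and pools of dataset 1 are assumed to vary alike. The p-values therefore carry no replication of dataset 1. In this model 4 of 67 protocadherins tested in pyramidal neurons and 4 of 34 in inhibitory neurons were called, where 12.9% and 3.13% of all genes were, so the pyramidal share lay under that of all genes. Pcdh7 in pyramidal neurons was at 822 CPM in Run and 606 in Sed of dataset 1, but at 565 and 720 (GH) and 597 and 728 (SI) in dataset 2. Run was the higher library in dataset 1 and the lower in both pairs of dataset 2. Dataset 2 minus dataset 1, the log2 difference was -0.89 ± 0.12 (adjusted p = 1.56e-11, edgeR quasi-likelihood).

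Pcdh15 followed this order, with Run over Sed at 0.21 on the log2 scale in dataset 1 and at -0.38 (GH) and -0.22 (SI) in dataset 2 (interaction -0.64 ± 0.11, adjusted p = 8.59e-07). Pcdh17 was at 124 and 96.9 CPM in dataset 1, 148 and 202 in the GH pair and 188 in both SI libraries (-0.71 ± 0.14, adjusted p = 6.52e-06). Pcdhga12 moved the other way, at 10.4 and 13.8, 7.80 and 3.72, and 7.17 and 4.47 (1.12 ± 0.28, adjusted p = 9.72e-04). Its libraries of highest and lowest level were both Sed. DESeq2 and the fit on nuclei thinned to 1000 UMIs each kept the calls of Pcdh7 and Pcdh15 and lost those of Pcdh17 and Pcdhga12. The mix of layers among pyramidal nuclei also differed between libraries. Layer 6 nuclei were 646 of 6238 in RunGH and 990 of 4096 in SedGH of dataset 1. In dataset 2 they were 1374 of 7796 and 579 of 4898 (GH), and 1024 of 6709 and 567 of 4061 (SI), Run first. The part of this mix in the interactions was not tested.

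In inhibitory neurons the 4 genes were Pcdh10 (-0.73 ± 0.21, adjusted p = 0.0269), Pcdh7 (-0.63 ± 0.16, 0.00447), Pcdh9 (-0.49 ± 0.14, 0.021) and Pcdh11x (-0.72 ± 0.19, 0.0118), by edgeR, whereas DESeq2 called 0 and the fit on thinned nuclei called 0. In dataset 1 the Run library was above the Sed library by 0.50, 0.55, 0.36 and 0.50 on the log2 scale. In dataset 2 the differences were between -0.22 and 0.08 for all 4 genes in both pairs. SedGH of dataset 2, the library with the fewest UMIs per nucleus, enters these interactions. With nuclei thinned to 1000 UMIs, for which 376 of its 519 inhibitory nuclei were deep enough, while the other libraries kept all of theirs, the fitted values were -0.64, -0.46, -0.54 and -0.73 for Pcdh10, Pcdh7, Pcdh9 and Pcdh11x, with adjusted p of 0.584, 0.417, 0.146 and 0.39 (edgeR).

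**Figure D5:**
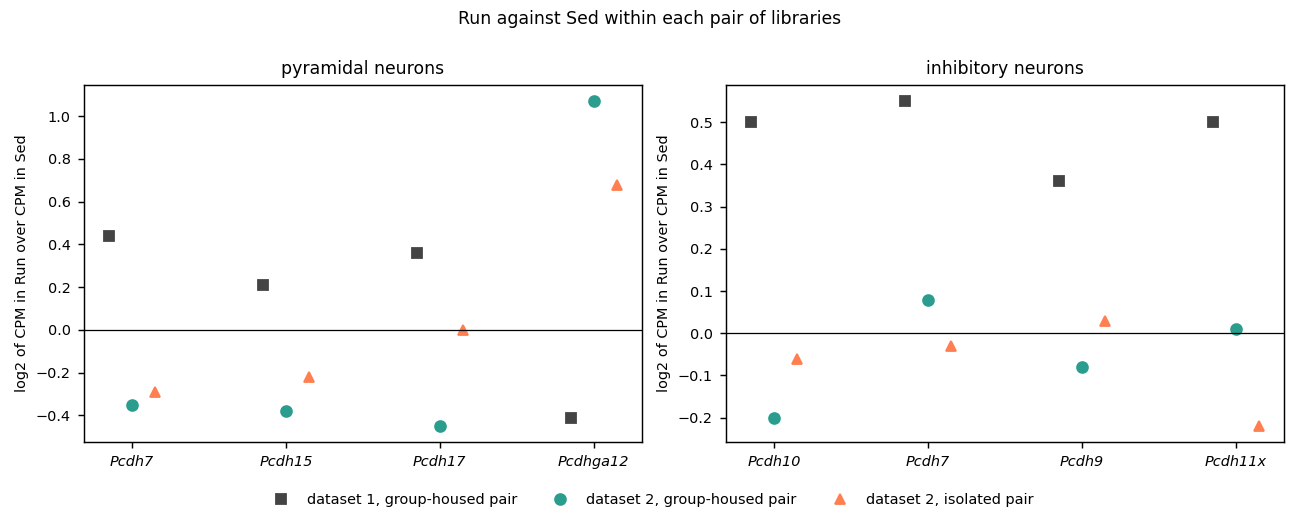
Log2 ratio of Run to Sed CPM in the 3 library pairs (dataset 1 GH, dataset 2 GH, dataset 2 SI) for the 4 protocadherins called in pyramidal and the 4 called in inhibitory neurons; each point is 1 pair of libraries and has no error of its own. Pcdh7 in pyramidal neurons goes from 0.44 to -0.35 and -0.29, and Pcdhga12 from -0.41 to 1.07 and 0.68.

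The datasets also differed in level. In pyramidal neurons 38.2% of all genes were called between dataset 2 and dataset 1, and of 64 protocadherins tested 2 were higher and 31 lower. Clustered genes were lower in 28 of 53 and higher in 0: 5 of 12 α (median -1.07), 10 of 21 β (-1.02) and 13 of 20 γ genes (-1.48), where the median of all genes was -0.01. Of the non-clustered genes, Pcdh10 (0.55 ± 0.10) and Pcdh8 (0.77 ± 0.24) were higher and Pcdh1 (-1.03 ± 0.11), Pcdh9 (-0.57 ± 0.11) and Pcdh11x (-0.50 ± 0.12) lower. The call of Pcdh8 was lost with DESeq2 and with thinned nuclei, and its background droplets were at 4.51 and 3.64 CPM in dataset 1 and 17.2 to 37.4 in dataset 2, above the levels in pyramidal neurons (1.60 to 4.21). The part of free RNA in it was not tested. The summed clustered level was 138 and 162 CPM in dataset 1 and 82.0 to 87.5 in dataset 2, with no overlap. In background droplets it was 102 and 119 in dataset 1 and 87.5 to 102 in dataset 2, and the part of free RNA in the difference was not tested.

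The largest decreases were in Pcdhgb6 (-2.81 ± 0.41, adjusted p = 0.00449), Pcdha6 (-2.72 ± 0.55), Pcdhgb7 (-2.65 ± 0.41), Pcdha11 ENSMUSG00000007440 (-2.59 ± 0.44), Pcdhb15 (-2.28 ± 0.37) and Pcdhgb5 (-2.07 ± 0.27), followed by Pcdhgc3 (-2.04), Pcdhb11 (-1.91), Pcdhga11 (-1.83) and Pcdhga10 (-1.82), by edgeR's test. Pcdhgb5, for example, was at 3.41 and 5.09 CPM in dataset 1 and 1.03 to 1.58 in dataset 2. Kept nuclei of dataset 1 held more UMIs (median 5586 and 6250 against 1637 to 4033). The UMI minimum for keeping a nucleus was also higher there (2452 and 3156 against 621 to 1587). In dataset 1, 82376 and 103391 barcodes passed the gene and mitochondrial limits, against 5687 to 10532 per library in dataset 2. Behavioural testing and dataset cannot be told apart. DESeq2 kept 22 of the 33 calls, and Pcdha6 was the one of these 10 genes that it lost. With each nucleus thinned to 1000 UMIs 16 members were called. Of the genes named here Pcdhb15, Pcdhgb5 and Pcdhb11 were among them, Pcdhga10 missed the threshold and the other 6 had too few UMIs to be tested. Without RunGH or SedGH of dataset 2 there were 10 and 14 calls.

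Other genes of protocadherin biology were followed as lists. Of 23 promoter-choice and chromatin genes measured, of 26 signalling and cytoskeletal partners and of 14 related atypical cadherins, 0 were called by edgeR or DESeq2 in any of the 12 maternal or housing comparisons. At an unadjusted p under 0.05, edgeR gave 8, 9 and 8 entries over the 12 comparisons, in the order of the lists, and DESeq2 2, 1 and 3. In each comparison 17 to 23, 22 to 26 and 7 to 13 genes of the lists were tested by edgeR. The share of all genes under that cut is not given, so no result is read from these counts. In the interaction in pyramidal neurons edgeR called 3 of 23 promoter-choice genes (Maz, 0.62; Dnmt3a, 0.48; Setdb1, 0.48), a share like the 12.9% of all genes, and DESeq2 called 0. In the same interaction 3 of 13 atypical cadherins (Celsr3, 1.01; Celsr2, 0.74; Fat3, -0.47) and 2 of 26 signalling partners (Ppp1ca, 0.76; Abi1, -0.48) were called by edgeR and 0 of either by DESeq2. In inhibitory neurons, where 3.13% of all genes were called, Celsr3 (1.35) was the 1 gene of the 3 lists that edgeR called, and DESeq2 called 0. Between the datasets 5 of 23 were lower and 0 higher, under the 38.2% of all genes called: Dnmt3a (-1.02), a de novo DNA methyltransferase, Dnmt1 (-0.66), Tet1 (-0.58), Pds5b (-0.40) and Tet3 (-0.39). In astrocytes 8 of 23 were higher and 3 lower than in pyramidal neurons (27.5 and 26.5% of all genes). The higher ones were led by Rest (4.96), a repressor of neuronal genes, Dnmt3b (1.76, on 19 UMIs in astrocytes), which methylates clustered protocadherin promoters, and Tet1 (1.54). In inhibitory neurons 5 of 22 were higher and 4 lower (29.1 and 24.6% of all genes). In layer 6 against layer 2/3, 6 of 21 were higher and 3 lower (18.7 and 23.6% of all genes), with Tet1 at 1.15. In SST against PV interneurons edgeR called 2 of 21 higher and 3 lower (12 and 14.1% of all genes), but DESeq2 called 0.

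Against the same shares of all genes, 7 of 25 signalling partners were higher and 9 lower in astrocytes, with Ptk2b, a kinase inhibited by clustered protocadherins, at -1.98. In inhibitory neurons 5 of 26 were higher and 13 lower, where 29.1 and 24.6% of all genes were, and Ptk2b was at -2.57. Of the atypical cadherins 4 of 12 were higher and 6 lower in astrocytes (27.5 and 26.5% of all genes), among them Celsr1 (6.32) and Dchs1 (3.05) above and Celsr3 (-2.58) and Clstn2 (-2.37) below pyramidal neurons. Inhibitory neurons had 4 of 12 higher, led by Dchs1 (3.71), and 4 lower, led by Fat3 (-1.92). In layer 6, where 3 of 10 were higher and 2 lower, Fat4 was at -3.02 and Fat1 at -1.78 against layer 2/3. In the dataset comparison 6 of 13 atypical cadherins were lower and 0 higher (38.2% of all genes were called), with Celsr3 (-1.60) and Celsr2 (-1.03) at the largest changes.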

How the data were processed

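The authors sequenced 10x Chromium 3′ V3 libraries and made the deposited UMI counts with Cell Ranger (version 6.0.0 per the processing notes, Cell Ranger 4 per the file headers), mm10, with introns included. The annotation release is not given in the sources used here. GENCODE M21 gave positions and countable lengths. Nuclei with 500 to 4000 genes and at most 1% mitochondrial UMIs, above a UMI minimum set per library, were clustered (Scanpy 1.11.5, Leiden 0.10.2, 3000 genes without protocadherins, 35 components, 20 neighbours, resolution 0.6). Doublets (1.09 to 6.75% marked) were kept in the main values. UMIs summed per library and class were tested with edgeR 4.0.16 (quasi-likelihood, TMM, filterByExpr, R 4.3.3), with Benjamini-Hochberg adjustment over all genes at 0.05, in 22 comparisons. DESeq2 1.42.0 was an alternative. The Wilcoxon test over nuclei used by the study was not used, because nuclei of 1 library are not replicates.

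The members and lists were chosen with earlier results of these data known. Named were the 12 members with most UMIs, the 3 with most in each cluster, and per comparison each called member, or the 10 with the largest change and at least 100 UMIs where more than 10 were called; some further called members are named in the text from their values. The tests were tested on simulated data with known changes. Replicate numbers 1 and 2 of RunGH and SedGH are the datasets, so the dataset term is the block. Intervals cover counting error only.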

Additional observations from a re-analysis of the deposited data

Results flagged for a closer look

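The interaction of maternal environment and dataset passed edgeR's quasi-likelihood test in 8 results. In pyramidal neurons they were Pcdh7 (-0.89), Pcdh15 (-0.64), Pcdh17 (-0.71) and Pcdhga12 (1.12), as log2 differences of dataset 2 minus dataset 1. In inhibitory neurons they were Pcdh10 (-0.73), Pcdh7 (-0.63), Pcdh9 (-0.49) and Pcdh11x (-0.72). The 4 of 67 in pyramidal neurons compare with 12.9% of all genes, and the 4 of 34 in inhibitory neurons with 3.13%. DESeq2 and thinning to 1000 UMIs each lost all 4 inhibitory calls and, of the pyramidal ones, Pcdh17 and Pcdhga12. Pcdh7 had the same sign in both classes, but these come from the same pools and are not independent. Dataset 1 has 1 library per group, so these differences rest on single pools there. For their p-values the 1 residual degree of freedom is the disagreement between the GH and SI pairs of dataset 2. The test also draws each gene's spread towards that of all genes. Tube testing, rank and UMIs per nucleus cannot be told apart from the dataset. The mix of layers among pyramidal nuclei also differed between libraries, and its part was not tested. Outliers within groups were not sought, since each group had 1 or 2 libraries.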

How the results depend on the processing

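Counts of protocadherins called depended on the processing as follows. For the interaction in pyramidal neurons (4), DESeq2 gave 2 and nuclei thinned to 1000 UMIs 2. In inhibitory neurons (4), library totals gave 2, DESeq2 0 and thinning 0. For dataset 2 against dataset 1 (33), thinning gave 16 and leaving out 1 library 10 to 38, lowest without RunGH replicate 2. In the class contrasts, a fit without the replicate block (library) gave 6 for inhibitory neurons (14), 8 for astrocytes (14), 3 for precursors (7), 3 for oligodendrocytes (5), 1 for microglia (6), 4 for layer 6 (9) and 3 for SST interneurons (5). Thinning gave 4 for astrocytes, 4 for precursors and 3 for oligodendrocytes. Library totals gave 2 for microglia and 3 for oligodendrocytes, where DESeq2 and its size factors gave 3 as well. Leaving out 1 library gave 12 to 14, 11 to 15, 3 to 7, 3 to 4, 4 to 6, 7 to 11 and 4 to 5 in the same order of classes. For the maternal environment in pyramidal neurons it gave 0 to 7, and 0 to 0 in every other maternal or housing comparison. Fits of these without the replicate block, which here is the dataset term, also called 0 members. The share of pyramidal nuclei with a clustered UMI went from 36.2% to 9.87% on thinning. No direction reversed among the alternatives run, and with each named change counted once per alternative, 892 refitted values of called changes still passed the threshold and 127 did not, while of uncalled changes 4 newly passed it and 96 did not. The interaction could not be refitted without a library, as no residual degrees of freedom remain. The cause of these shifts was not tested.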
